A study of Mus musculus with 12 samples.

Results

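The metallothioneins and a set of proteins that sense or move zinc were followed in skeletal muscle, liver and fat of mice given excess glucocorticoid. The 8 genes were the metallothioneins *Mt1*, *Mt2* and *Mt3*, their regulator *Mtf1*, the exporters *Slc30a1* and *Slc30a10*, and the importers *Slc39a10* and *Slc39a14*. They were taken by symbol from the 22273 genes listed for gastrocnemius and the 22252 listed for liver and for gonadal white adipose tissue (WAT), and all 8 were found in each. The genes were selected on values measured in these same libraries, above all the levels of *Mt1* and *Mt2* with corticosterone (CORT) and without it. All values below therefore describe the libraries, and none was tested.

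The mice were males of 2 genotypes on a C57BL/6J background. GRf/f mice carried floxed alleles of the glucocorticoid receptor gene *Nr3c1* and no Cre. GRmKO mice carried the same alleles with an Acta1-Cre transgene, which deletes the receptor in skeletal myofibres and leaves it in the other cells of muscle, in liver and in fat. From 8 weeks of age, mice of each genotype were given a 1% ethanol solution to drink (vehicle), or that solution with CORT added at 100 µg/mL, for 4 weeks. Each of the 12 groups of tissue, genotype and treatment gave 1 library, made from RNA pooled from 3 mice. With 1 library per group there was no replicate error, no test and no p-value, and differences between mice or pools could not be estimated.

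The libraries held 19394572 to 20940660 expected counts. Levels are given as counts-per-million (CPM), the expected count divided by the library total. For log2 changes, 0.5 CPM was first added to either level. Values in parentheses are 95% counting intervals, which cover counting error only, and those of ratios were computed without the added 0.5 CPM. A gene was called changed where the log2 change was at least 1 in size (2-fold). A second call, NOISeq at a probability of 0.9, measures distance from simulated counting noise. Comparisons were limited to genes above 0 in each of the 4 libraries of the tissue, which 6 of the 8 passed for gastrocnemius and 7 for either other tissue. *Nr3c1* itself stood at 113 and 90.4 CPM in gastrocnemius of vehicle- and CORT-treated GRf/f mice, and at 46.4 and 35.5 CPM in the corresponding GRmKO mice. The tissue labels fitted their markers, since 7 myofibre genes summed to between 96489 and 137870 CPM in gastrocnemius, 9 hepatocyte genes to between 98128 and 168620 CPM in liver, and 7 adipocyte genes to between 24320 and 30243 CPM in gonadal WAT. The gastrocnemius libraries of GRmKO mice stood apart in their hepatocyte transcripts, whose sum was 97.0 and 332 CPM with vehicle and CORT, against 7.76 and 10.3 CPM in GRf/f mice.

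Metallothioneins are small, cysteine-rich proteins that bind zinc, copper and cadmium in the cytosol. Their genes are switched on by zinc through the transcription factor MTF1, which binds short metal response elements (MREs) in their promoters, and glucocorticoids are classical inducers of *Mt1* and *Mt2* in liver. Zinc transporters of the Slc30 family move metal out of the cytosol, and those of the Slc39 family move it in. *Slc30a1* encodes the zinc exporter of the cell surface and is itself an MTF1 target. *Slc30a10* encodes a transporter best known for manganese export from liver, and *Slc39a14* encodes an importer of zinc, manganese and iron.

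The metallothionein genes lie side by side on chromosome 8. On genome build GRCm38, *Mt3* (ENSMUST00000034211) spans 94152607 to 94154146, *Mt2* (ENSMUST00000034214) 94172664 to 94173568, and *Mt1* (ENSMUST00000034215) 94179082 to 94180327. All have 3 exons and lie on the forward strand, and 5513 bases separate the end of *Mt2* from the start of *Mt1*. *Mt4*, the remaining gene of the cluster, which spans 43.131 kb in all, was listed at 0 in all 12 libraries.

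Promoter windows from RefSeq (GRCm38.p6, 250 bases before to 50 after an annotated start) were held for 7 of the 8 genes, all but *Slc39a14*. They were searched on both strands for the MRE core, TGCACNC or TGCGCNC. The window of *Mt2* held 4 matches, that of *Mt1* 3, that of *Slc30a10* 3 of which a pair overlap on opposite strands, that of *Slc30a1* 2 and that of *Mt3* 1. Those of *Mtf1* and both windows of *Slc39a10* held 0. Of all 32807 windows in the table, 25.7% held at least 1 match, 7.12% at least 2, 1.97% at least 3 and 0.518% at least 4. The glucocorticoid receptor half-site AGAACA was present in 19.0% of all windows and, of these genes, only in that of *Mtf1*. A match describes letters in these windows and is not evidence of binding. The lack of a match says nothing of sites farther than 250 bases before a start. The first 240 bases of a window are given for *Mt1*, *Mt2* and *Slc30a10*, the 3 genes past 2-fold with CORT in GRf/f liver, 5′ to 3′, with MRE cores on either strand in capitals. They lie upstream of the RefSeq start, at chr8:94178839-94179078 for *Mt1*, chr8:94172368-94172607 for *Mt2* and chr1:185454598-185454837 for *Slc30a10*, all on the forward strand. Matches in the last part of a window are counted above and not shown.
Mt1: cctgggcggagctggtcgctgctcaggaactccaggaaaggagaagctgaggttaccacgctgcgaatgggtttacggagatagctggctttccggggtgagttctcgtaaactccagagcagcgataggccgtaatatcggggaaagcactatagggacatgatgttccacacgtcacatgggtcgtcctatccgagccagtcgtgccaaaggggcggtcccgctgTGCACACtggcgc
Mt2: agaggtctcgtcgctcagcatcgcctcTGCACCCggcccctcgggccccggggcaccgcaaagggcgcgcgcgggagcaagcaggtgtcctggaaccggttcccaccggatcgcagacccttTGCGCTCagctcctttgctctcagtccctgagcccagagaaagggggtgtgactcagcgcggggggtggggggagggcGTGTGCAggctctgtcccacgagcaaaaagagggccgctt
Slc30a10: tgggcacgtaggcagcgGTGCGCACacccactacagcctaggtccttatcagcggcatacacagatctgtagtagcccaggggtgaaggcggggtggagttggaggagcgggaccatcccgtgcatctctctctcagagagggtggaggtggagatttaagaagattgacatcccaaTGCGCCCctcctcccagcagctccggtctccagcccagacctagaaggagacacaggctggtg

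*Mt1* and *Mt2* were highest in fat and rose with CORT in every tissue of GRf/f mice. In gonadal WAT, *Mt1* stood at 190 CPM (184 to 197) with vehicle and 855 CPM (842 to 868) with CORT in GRf/f mice, and at 204 CPM (198 to 210) and 740 CPM (728 to 752) in GRmKO mice. In liver the 4 levels of *Mt1* in the same order were 34.5 CPM (32.1 to 37.1), 193 CPM (187 to 199), 36.3 CPM (33.7 to 38.9) and 68.6 CPM (65.1 to 72.3). In gastrocnemius they were 21.3 CPM (19.4 to 23.5), 60.5 CPM (57.2 to 64.1), 29.2 CPM (26.9 to 31.7) and 35.0 CPM (32.5 to 37.7). Ordered by level, the intervals of *Mt1* overlapped among the vehicle libraries of liver and the CORT library of GRmKO gastrocnemius. They also overlapped between CORT-treated GRf/f liver and each vehicle library of fat, so that *Mt1* in that liver library stood at its vehicle level in fat.

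*Mt2* was likewise highest in the CORT libraries of fat and lowest in vehicle-treated GRf/f muscle. In gonadal WAT it stood at 132 CPM (127 to 137) with vehicle and 874 CPM (861 to 887) with CORT in GRf/f mice, and at 127 CPM (122 to 132) and 719 CPM (708 to 731) in GRmKO mice. In liver its levels were 15.3 CPM (13.7 to 17.1), 162 CPM (157 to 168), 14.7 CPM (13.1 to 16.4) and 42.8 CPM (40.1 to 45.7). In gastrocnemius they were 14.0 CPM (12.5 to 15.8), 56.8 CPM (53.5 to 60.2), 28.5 CPM (26.3 to 31.0) and 38.0 CPM (35.4 to 40.8). The intervals of *Mt2* overlapped among the vehicle libraries of liver and of GRf/f gastrocnemius, between GRmKO gastrocnemius and GRmKO liver with CORT, and between the vehicle libraries of fat. In bulk tissue, a lower number of cells of a type and less RNA per cell cannot be told apart, and this holds for all levels given here.

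**Figure D1:**
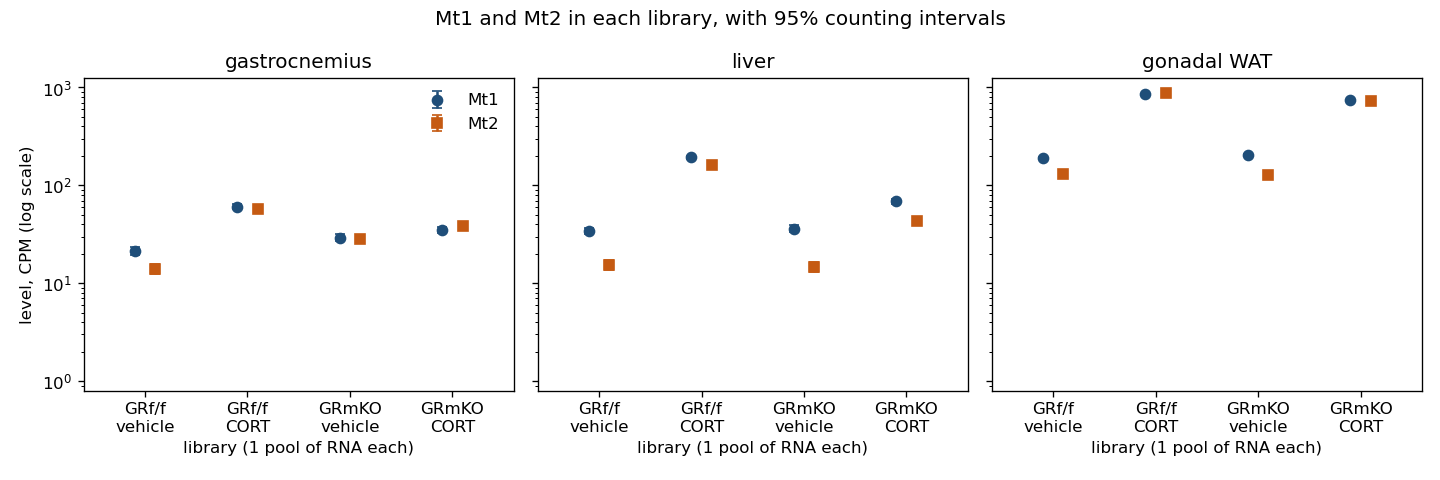
Levels of *Mt1* (circles) and *Mt2* (squares) in CPM on a log axis in each of the 12 libraries, 1 pool of RNA each, with 95% counting intervals, which are mostly smaller than the symbols. In each tissue the GRf/f CORT library is highest for both genes, at 60.5 CPM in gastrocnemius, 193 CPM in liver and 855 CPM in gonadal WAT for *Mt1*.

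In gastrocnemius of GRf/f mice, CORT raised *Mt1* and *Mt2* and no other of the 6 genes compared. The log2 change was 1.48 (1.34 to 1.67) for *Mt1*, 2.84-fold, and 1.98 (1.83 to 2.21) for *Mt2*, 4.04-fold. By comparison, 7.97% of all 13543 genes were past 2-fold in this contrast, and 3.5% were called by NOISeq, which called the same 2 genes. *Slc39a14* stood at 15.1 CPM with vehicle and 21.4 CPM with CORT, a log2 change of 0.49 (0.28 to 0.72) under the threshold. The median change of the 6 was 0.33, against -0.08 over all genes compared.

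In gastrocnemius of GRmKO mice none of the 6 was past 2-fold with CORT, where 6.53% of all genes were, and none was called by NOISeq, which called 2.03%. *Mt1* and *Mt2* stood higher with CORT than with vehicle by 0.26 (0.10 to 0.42) and 0.41 (0.26 to 0.57), and by 0.41 and 0.56 with TMM factors, another scaling of the libraries. The CORT change was therefore smaller in GRmKO than in GRf/f mice by 1.22 (1.02 to 1.47) for *Mt1* and by 1.57 (1.36 to 1.85) for *Mt2* on the log2 scale. In *Slc39a14* the 2 changes differed in the same direction, by 0.55 (0.23 to 0.90).

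Part of that difference lay in the vehicle libraries. With vehicle, *Mt2* in gastrocnemius of GRmKO mice was higher than in GRf/f mice by 1.00 (0.82 to 1.24), which lay just under the 2-fold threshold on this scale and was called by NOISeq. *Mt1* was higher by 0.44 (0.27 to 0.64) and *Slc30a1* by 0.59 (0.32 to 0.91). None of the 6 genes was past 2-fold and 1 was called by NOISeq, against 7.77% and 3.27% of all genes. With CORT, *Mt1* was lower in GRmKO than in GRf/f mice by 0.78 (0.65 to 0.93), *Mt2* by 0.57 (0.44 to 0.71) and *Slc39a14* by 0.84 (0.63 to 1.10), and again none was past 2-fold or called by NOISeq, against 9.71% and 3.84% of all genes.

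Transcripts of adipocytes moved with the metallothioneins in muscle. The 7 adipocyte genes together stood at 238 CPM with vehicle and 611 CPM with CORT in gastrocnemius of GRf/f mice, and at 340 and 476 CPM in GRmKO mice. *Lep*, which encodes leptin, rose from 2.01 to 93.6 CPM in GRf/f and from 3.35 to 31.4 CPM in GRmKO muscle, while *Cfd*, which encodes adipsin, fell from 53.4 to 22.6 CPM in GRf/f muscle. In CORT-treated GRf/f muscle the 7 genes lay at 1.64% to 5.91% of their level in the matching fat library. The *Mt1* level of fat scaled by these percentages was 14.0 to 50.5 CPM, with a median of 23.3 CPM, against the 60.5 CPM measured. For *Mt2* the scaled values were 14.4 to 51.7 CPM, with a median of 23.8 CPM, against 56.8 CPM. In vehicle-treated GRf/f muscle the scaled *Mt1* was 0.53 to 2.26 CPM against 21.3 CPM measured.

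With each scaled value taken off the measured one, the CORT change left in GRf/f muscle depended on the marker. For *Mt1* it ranged from -0.94 with *Cfd* to 1.15 with *Retn*, the gene of resistin, with a median of 0.90, and a rise past 2-fold was left with 3 of the 7 markers. For *Mt2* it ranged from -1.25 to 1.61 with a median of 1.31, and a rise past 2-fold was left with 6 of 7. In GRmKO muscle the median left was -0.37 for *Mt1*, the highest being -0.04 with *Lep*, and -0.15 for *Mt2* (-2.75 to 0.13). With *Cfd* the scaled *Mt1* exceeded the measured level with CORT, so nothing was left and no change is given. *Cfd* still counts, with 0 CPM left, as the lowest value in the median of *Mt1*. No marker left a rise past 2-fold for either gene, but the measured changes in GRmKO muscle, 0.26 and 0.41, were already under 2-fold. That count therefore makes no contrast with GRf/f muscle. This scaling was chosen after the values had been seen, and it takes the metallothionein level of adipocytes within muscle to be that of the gonadal depot, which was not tested. Hepatocyte transcripts in GRmKO muscle, scaled in the same way, stood for at most 0.23 CPM of *Mt1* against 35.0 CPM measured with CORT. Macrophage markers were also higher in gastrocnemius of vehicle-treated GRmKO mice, at 416 CPM in sum, against 122 CPM in both GRf/f libraries and 165 CPM in CORT-treated GRmKO mice. Myofibre markers were lowest in the vehicle-treated GRmKO library, at 96489 CPM in sum, against 137870 CPM in vehicle-treated GRf/f mice. Of these 7, *Myh4* and *Mylpf* were past 2-fold between these libraries, 1 higher and 1 lower, against 7.77% of all genes. The part of either cell type in the vehicle levels of *Mt1* and *Mt2* was not tested.

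**Figure D2:**
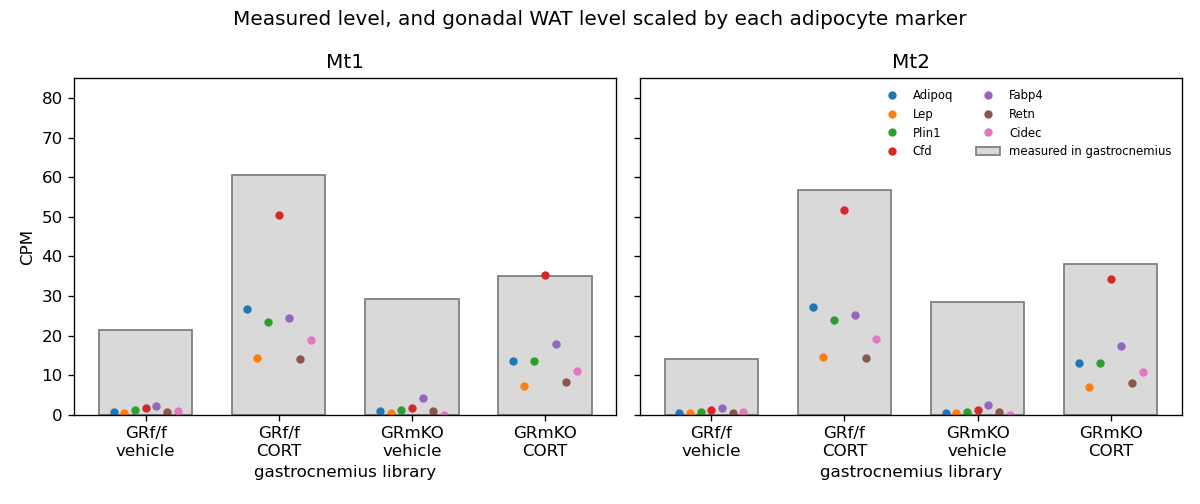
Grey bars give the level in CPM of *Mt1* (left) and *Mt2* (right) measured in each gastrocnemius library, and points give the gonadal WAT level of the same genotype and treatment scaled by the percentage at which each of 7 adipocyte markers was present in muscle. In GRf/f CORT muscle all points lie under the bars, at 14.0 to 50.5 CPM against 60.5 CPM for *Mt1*, and in GRmKO CORT muscle the *Cfd* point for *Mt1*, at 35.4 CPM, lies level with the bar at 35.0 CPM.

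In liver of GRf/f mice 3 of the 7 genes compared rose with CORT. *Mt1* rose 5.59-fold, a log2 change of 2.47 (2.37 to 2.60), *Mt2* rose 10.6-fold, a change of 3.36 (3.24 to 3.57), and *Slc30a10* rose 5.07-fold, a change of 2.31 (2.17 to 2.52). NOISeq called the same 3 genes. Among all 12485 genes of liver, 11.6% were past 2-fold and 4.9% were called by NOISeq. Macrophage markers went the other way, with a sum of 135 CPM with vehicle and 37.3 CPM with CORT, and of 104 and 59.2 CPM in GRmKO liver. Endothelial markers summed to 66.8 and 40.5 CPM in GRf/f liver and to 65.3 and 55.6 CPM in GRmKO liver. Adipocyte markers summed to 6.91 to 12.5 CPM over the 4 liver libraries.

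In liver of GRmKO mice *Mt2* rose with CORT by 1.51 (1.35 to 1.74), 2.91-fold, and *Slc30a10* by 1.38 (1.22 to 1.59), 2.65-fold. *Mt1* stood 0.91 (0.79 to 1.05) higher, under the threshold. NOISeq also called *Mt2* and *Slc30a10*, and the shares of all genes were 5.61% past 2-fold and 2.2% by NOISeq. The CORT change of GRmKO mice was smaller than that of GRf/f mice by 1.56 (1.39 to 1.73) for *Mt1*, 1.85 (1.61 to 2.11) for *Mt2* and 0.93 (0.68 to 1.19) for *Slc30a10*. Cre acts in muscle, so these are differences in a tissue that keeps its receptor, and *Nr3c1* in liver stood at 58.0 and 45.2 CPM in GRf/f and at 60.8 and 49.6 CPM in GRmKO mice with vehicle and CORT.

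Unlike in muscle, the genotypes did not differ in their vehicle livers by more than 0.07 for *Mt1*, *Mt2* and *Slc30a10*. The log2 differences of GRmKO from GRf/f were 0.07 (-0.08 to 0.22), -0.06 (-0.29 to 0.17) and 0.03 (-0.19 to 0.26). None of the 7 genes was past 2-fold or called by NOISeq, against 2.3% and 0.561% of all genes. With CORT, *Mt1* was lower in GRmKO than in GRf/f liver by 1.48 (1.40 to 1.58), 2.81-fold, and *Mt2* by 1.91 (1.82 to 2.03), 3.79-fold. These were the 2 genes past 2-fold and called by NOISeq, against 4.72% and 1.45% of all genes. *Slc30a10* was lower by 0.90 (0.79 to 1.03), under the threshold.

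In gonadal WAT, CORT raised all 3 metallothioneins in both genotypes. *Mt1* rose by 2.16 (2.12 to 2.22), 4.49-fold, in GRf/f and by 1.86 (1.81 to 1.91), 3.62-fold, in GRmKO mice. *Mt2* rose by 2.72 (2.67 to 2.78), 6.61-fold, and by 2.49 (2.44 to 2.56), 5.65-fold. The genotypes differed in this change by 0.31 (0.24 to 0.38) for *Mt1* and 0.23 (0.14 to 0.31) for *Mt2*, with the smaller change in GRmKO mice, against 1.22 and 1.57 in muscle and 1.56 and 1.85 in liver. Of the 7 genes, 3 were past 2-fold in each genotype and 2, *Mt1* and *Mt2*, were called by NOISeq. The shares of all 14218 genes were 13.6% and 7.5% in GRf/f mice and 9.1% and 4.3% in GRmKO mice. Between genotypes none of the 7 was past 2-fold or called by NOISeq, with shares of 2.22% and 0.774% with vehicle and of 2.62% and 0.668% with CORT.

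Cell type markers moved in fat as well. Macrophage markers summed to 791 CPM with vehicle and 1902 CPM with CORT in GRf/f fat, and to 999 and 1888 CPM in GRmKO fat, while 4 endothelial markers summed to 592 and 222 CPM, and to 550 and 297 CPM. *Cd68*, a lysosomal protein of macrophages, stood at 50.9, 171, 58.3 and 161 CPM over the 4 libraries. Which cells of fat carried the metallothionein transcripts was not tested.

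*Mt3*, the form best known from brain, was low in all tissues. It was listed at 0 in all 4 liver libraries, where the floor of 3 counts is 0.143 to 0.147 CPM. In gonadal WAT it stood at 0.35 CPM (0.17 to 0.72), or 7 counts, and 5.40 CPM (4.49 to 6.55) in GRf/f mice, and at 0.10 CPM (0.03 to 0.37), or 2 counts, and 3.53 CPM (2.79 to 4.43) in GRmKO mice with vehicle and CORT. The log2 change was 2.80 (2.86 to 5.30) and 2.74 (3.21 to 8.19), and in GRmKO mice it was 1.40 with 2 CPM added and 4.17 with 0.1 CPM added. Both CORT libraries of fat thus lay above both vehicle libraries, at a small part of the *Mt1* level. In gastrocnemius *Mt3* stood at 1.33, 0.83, 2.12 and 2.05 CPM, from 26, 16, 42 and 42 counts, in the order GRf/f vehicle, GRf/f CORT, GRmKO vehicle and GRmKO CORT, and its largest difference was 0.94 (0.46 to 2.25), higher in GRmKO than in GRf/f mice with CORT. That lay under the threshold with 0.5 CPM added, and past it, at 1.21, with 0.1 CPM added.

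*Mtf1* (ENSMUST00000030723, chromosome 4, 124802549 to 124849800, 11 exons), the zinc sensor of metallothionein transcription, was past 2-fold in no contrast of liver or fat. In liver it stood at 15.5, 22.2, 18.4 and 15.6 CPM, with log2 changes with CORT of 0.51 (0.31 to 0.73) in GRf/f and -0.23 (-0.45 to -0.01) in GRmKO mice. In gonadal WAT it stood at 16.5, 25.1, 18.0 and 18.8 CPM, with changes of 0.59 (0.40 to 0.81) and 0.06 (-0.15 to 0.27). The GRf/f CORT library was the highest in both tissues. In gastrocnemius it stood at 24.2, 16.3 and 17.3 CPM in GRf/f vehicle, GRmKO vehicle and GRmKO CORT libraries and was listed at 0 in the GRf/f CORT library. The entry bears the identifier of 1 of 4 coding transcripts of the gene, and whether reads of that library went to another was not tested.

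*Slc30a1* (ENSMUST00000044954, chromosome 1, 191906767 to 191913247, 2 exons) did not rise with *Mt1* and *Mt2*. Its levels in gastrocnemius were 8.04, 6.63, 12.3 and 11.0 CPM, in liver 22.0, 25.5, 29.3 and 26.5 CPM, and in gonadal WAT 19.8, 14.3, 19.6 and 16.4 CPM. With CORT in GRf/f mice the log2 change was -0.26 (-0.62 to 0.07) for muscle, 0.21 (0.03 to 0.40) for liver and -0.45 (-0.69 to -0.24) for fat. In no contrast was it past 2-fold. In gastrocnemius the GRmKO libraries lay above the GRf/f libraries with either treatment.

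*Slc30a10* (ENSMUST00000061093, chromosome 1, 185454848 to 185468762, 4 exons) was a liver transcript here. It stood at 15.4 CPM (13.8 to 17.2), 78.1 CPM (74.4 to 82.0), 15.7 CPM (14.1 to 17.6) and 41.7 CPM (39.0 to 44.6) in liver, where both CORT libraries lay above both vehicle libraries and that of GRf/f mice was highest. The libraries of the other tissues held 0 to 2 counts, at most 0.10 CPM.

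Neither importer was past 2-fold in any contrast. *Slc39a14* (ENSMUST00000068044, chromosome 14, 70303469 to 70351425, reverse strand, 10 exons) was highest in liver, at 102, 91.4, 102 and 92.5 CPM, with CORT changes of -0.16 (-0.25 to -0.07) in GRf/f and -0.14 (-0.23 to -0.05) in GRmKO mice. In gonadal WAT it stood at 11.5, 11.9, 16.2 and 10.1 CPM, with CORT changes of 0.05 (-0.21 to 0.33) and -0.65 (-0.94 to -0.42). *Slc39a10* (ENSMUST00000027131, chromosome 1, 46807544 to 46854046, reverse strand, 10 exons), an importer of zinc at the cell surface, stood at 11.5, 13.0, 8.52 and 9.50 CPM in gastrocnemius. It stood at 2.10, 2.34, 2.67 and 2.49 CPM in liver and at 22.7, 24.9, 28.5 and 21.6 CPM in gonadal WAT, and its log2 differences ran from -0.43 to 0.32 over all 12 contrasts.

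**Figure D3:**
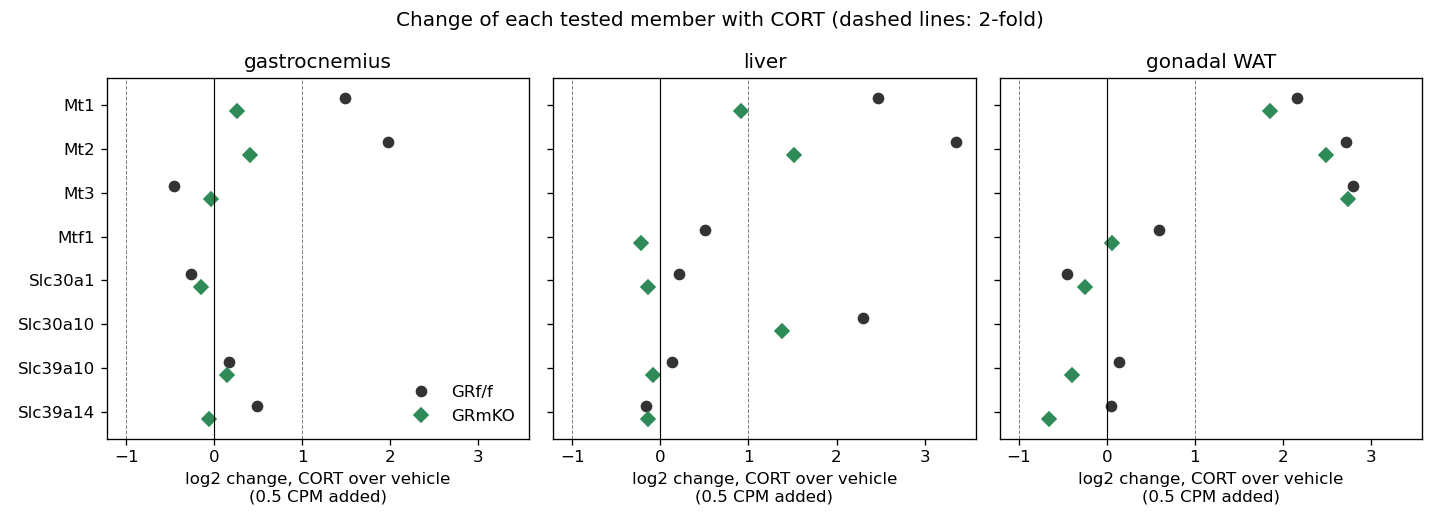
Log2 change with CORT over vehicle, with 0.5 CPM added, of each gene compared in each tissue, for GRf/f (circles) and GRmKO mice (diamonds), with dashed lines at 2-fold. *Mt1* and *Mt2* lie to the right in GRf/f mice of all 3 tissues, from 1.48 to 3.36, while *Slc30a1*, *Slc39a10* and *Slc39a14* lie between the dashed lines throughout.

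Levels of different genes were compared per kb of the transcript listed. *Mt1* and *Mt2* exceeded the other 6 genes in every library, with 27.5 to 1709 CPM per kb for *Mt2* and 38.9 to 1557 CPM per kb for *Mt1*. The next highest was *Slc39a14* in liver, at 18.6 to 20.8 CPM per kb. *Mtf1* stood at 2.03 to 3.29 CPM per kb in the libraries where it was above 0, and *Slc30a1* at 1.26 to 5.60 CPM per kb. *Mt1* was above *Mt2* per kb in all vehicle libraries but that of GRmKO gastrocnemius. With CORT *Mt2* stood at 111 against 110 CPM per kb in GRf/f gastrocnemius and at 1709 against 1557 CPM per kb in GRf/f fat, and in liver it remained lower, at 318 against 351 CPM per kb.

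**Figure D4:**
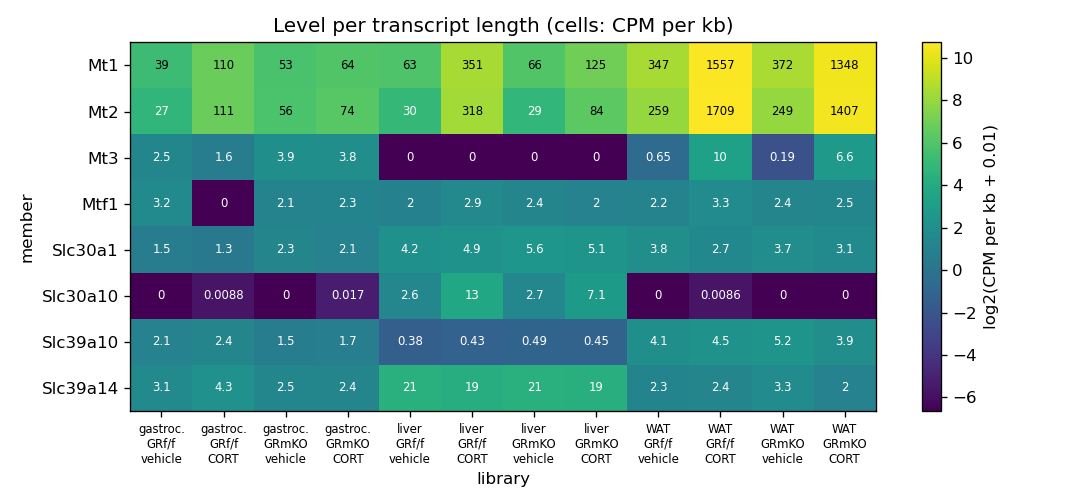
Level per transcript length, in CPM per kb, of each of the 8 genes (vertical) in each of the 12 libraries (horizontal), with colour on a log2 scale and the value in each cell. The rows of *Mt1* and *Mt2* hold the highest value of every column, up to 1709 CPM per kb, and *Slc30a10* is above 0.02 CPM per kb in liver only.

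The other zinc transporters were read as a list of 21 genes, all remaining Slc30a and Slc39a genes and *Mt4*, of which 13 could be compared in muscle, 16 in liver and 15 in fat. With CORT in GRf/f mice, 1 of 13 was past 2-fold in gastrocnemius, 1 of 16 in liver and 1 of 15 in fat, against 7.97%, 11.6% and 13.6% of all genes. In GRmKO mice 0, 2 and 0 were, against 6.53%, 5.61% and 9.1%. With so few genes, these counts do not set the list apart from all genes. Their median log2 change with CORT in GRf/f mice was 0.01 in gastrocnemius, -0.14 in liver and 0.13 in fat, against -0.08, 0.00 and -0.07 over all genes compared. The gene in gastrocnemius was *Slc39a3*, an importer of zinc, at 13.2 CPM with vehicle, 2.89 CPM with CORT, and 10.2 and 14.4 CPM in GRmKO mice, a fall of 2.01 (1.77 to 2.64) in GRf/f mice. It was also the gene higher in GRmKO than in GRf/f muscle with CORT, by 2.14 (1.90 to 2.76).

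The other calls were on low levels. In liver *Slc39a6* rose with CORT from 1.39 to 3.62 CPM in GRf/f mice, and in GRmKO mice *Slc39a3* fell from 5.49 to 2.04 CPM and *Slc39a5* rose from 0.15 to 2.12 CPM. In gonadal WAT *Slc30a6* rose from 4.38 to 9.96 CPM in GRf/f mice. Between genotypes, *Slc30a6* (6.15 and 2.82 CPM) and *Slc39a2* (1.71 and 0.30 CPM) were lower in GRmKO muscle with vehicle, and *Slc39a2* (2.57 and 0.59 CPM) was lower with CORT. In liver *Slc39a13* (5.55 and 1.53 CPM) was lower with vehicle and *Slc39a5* (0.80 and 2.12 CPM) higher with CORT, and in fat 0 of 15 were past 2-fold with either treatment. The shares of all genes in these contrasts, with vehicle and CORT, were 7.77% and 9.71% in muscle, 2.3% and 4.72% in liver, and 2.22% and 2.62% in fat. *Slc30a2*, which could not be compared because 1 library was at 0, stood at 18.9 and 19.3 CPM in GRf/f muscle and at 0 and 1.97 CPM in GRmKO muscle with vehicle and CORT. *Slc30a6* was listed at 0 in CORT-treated GRf/f liver and at 5.02 to 7.75 CPM in the other livers.

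Copper is the other metal that metallothioneins hold in these tissues, and 10 genes of copper handling were read for comparison. With CORT in GRf/f mice 2 of 9 were past 2-fold in gastrocnemius, *Atp7a*, a copper-exporting ATPase (4.90 and 1.16 CPM), and *Sco2*, a copper chaperone of cytochrome oxidase (4.82 and 2.07 CPM), both lower, against 7.97% of all genes. None of 10 was past 2-fold in any contrast of liver, where 2.3% to 11.6% of all genes were, and none of 9 in fat of GRf/f mice, where 13.6% were. In GRmKO fat *Atp7a* stood at 0.48 CPM with vehicle and 6.51 CPM with CORT and was past 2-fold, 1 gene of 9 against 9.1% of all genes, as it was between the genotypes with vehicle (4.76 and 0.48 CPM), against 2.22%. In GRmKO muscle with CORT *Atp7a* (1.16 and 5.02 CPM) and *Commd1* (6.29 and 13.3 CPM) were higher than in GRf/f muscle, 2 of 9 against 9.71% of all genes. No gene of this list was past 2-fold in muscle with CORT in GRmKO mice, between genotypes with vehicle in muscle, or between genotypes with CORT in fat. NOISeq called 0 genes of the list in every contrast, against 0.561% to 7.5% of all genes.

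Transcripts that mark known inducers of metallothioneins, namely glucocorticoid, interleukin 6 and oxidative stress, were read in the same libraries. *Fkbp5*, a chaperone induced by the glucocorticoid receptor, rose with CORT in muscle of GRf/f mice from 61.9 to 355 CPM and stood at 30.0 and 20.8 CPM in GRmKO muscle. In liver it stood at 47.7, 286, 70.2 and 147 CPM, and in fat at 141, 427, 206 and 264 CPM. Like *Mt1*, it was highest in the GRf/f CORT library of each tissue and higher with CORT in GRmKO liver and fat. In GRmKO muscle *Fkbp5* was lower with CORT, where *Mt1* was higher. *Il6* was listed at 0 to 0.31 CPM in all libraries. *Il6ra*, its receptor, rose from 7.07 to 36.5 CPM in GRf/f muscle, while *Socs3*, a feedback gene of cytokine signalling, was higher in GRmKO than in GRf/f muscle, at 33.9 against 15.3 CPM with vehicle and 64.9 against 12.8 CPM with CORT. *Hmox1*, the haem oxygenase induced by oxidative stress and haem, rose in fat from 50.1 to 274 CPM in GRf/f and from 60.2 to 195 CPM in GRmKO mice. *Nfe2l2*, the regulator of the antioxidant response, rose in liver of GRf/f mice from 41.6 to 118 CPM.

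With CORT in GRf/f mice, 4 of 13 genes of this list were past 2-fold in muscle, 2 of 12 in liver and 3 of 13 in fat, against 7.97%, 11.6% and 13.6% of all genes. In GRmKO mice 0, 2 and 4 were, against 6.53%, 5.61% and 9.1%. The remaining genes in those counts included *Zbtb16*, a glucocorticoid target that rose from 78.6 to 159 CPM in GRf/f muscle and fell from 98.0 to 45.6 CPM in GRmKO fat. *Per1*, a clock gene, fell from 80.6 to 33.1 CPM in GRf/f muscle, from 78.4 to 36.6 CPM in GRf/f fat and from 97.9 to 27.1 CPM in GRmKO fat. *Fkbp5* rose with CORT in each of these. *Tsc22d3*, another glucocorticoid target, fell from 107 to 49.1 CPM in GRmKO liver, and *Socs3* rose from 11.0 to 23.5 CPM in GRmKO fat. Between genotypes 5 of 13 were past 2-fold in muscle with each treatment, against 7.77% of all genes with vehicle and 9.71% with CORT. With vehicle *Nr3c1*, *Fkbp5*, *Per1* and *Zbtb16* were lower and *Socs3* higher in GRmKO muscle, and with CORT *Il6ra* took the place of *Per1*. In liver 1 of 12 was past 2-fold with vehicle, *Zbtb16* (7.04 and 19.9 CPM), and in fat 1 of 13, again *Zbtb16* (47.5 and 98.0 CPM), both higher in GRmKO mice, against 2.3% and 2.22% of all genes. With CORT 0 were in either tissue, against 4.72% and 2.62%.

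To find the genes whose pattern lay nearest to that of *Mt1* and *Mt2*, log2 levels were centred within each tissue and compared over the 12 libraries by root mean square difference. The median over 11119 genes was 1.07, and *Mt1* and *Mt2* lay 0.33 apart. Among the nearest to their mean were *Dtx4*, a ubiquitin ligase of the Deltex family (0.45), *Odad4*, a gene of cilia (0.49), *Acss3*, a short-chain acyl-CoA synthetase (0.54), and *Tubb2a*, a beta tubulin (0.55). *Dtx4* stood at 3.87, 18.3, 4.37 and 7.32 CPM in liver and at 18.0, 77.9, 18.6 and 70.0 CPM in gonadal WAT. In gastrocnemius it stood at 11.2, 10.7, 12.2 and 9.89 CPM, so that it matched the metallothioneins in liver and fat and not in muscle. *Tubb2a* stood at 17.1, 286, 36.4 and 97.0 CPM in liver, and *Acss3* at 15.5, 69.9, 15.8 and 48.3 CPM. In gastrocnemius *Tubb2a* did not match either, at 25.3, 24.1, 32.1 and 24.8 CPM. *Odad4* stood at 0.05 to 2.78 CPM over the 12 libraries, so the 0.5 CPM added before the log weighs in its profile.

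The coding genes beside the cluster gave smaller changes with CORT in GRf/f mice. *Ogfod1*, *Bbs2* and *Nup93*, which lie within 100 kb on either side and were looked up after the values had been seen, gave 36 log2 changes over the tissues and contrasts, from -1.01 to 1.00. Of these, 2 were past 2-fold, both of *Ogfod1*, which was lower in GRmKO than in GRf/f liver with CORT (4.86 and 10.3 CPM) and rose with CORT in GRmKO fat (13.2 to 27.0 CPM). In GRf/f mice, with CORT, the 3 genes gave changes of -0.68 to 0.56 over the 3 tissues, while *Mt1* and *Mt2* gave 1.48 to 3.36.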

How the data were processed

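RNA of gastrocnemius, liver and gonadal WAT was sequenced as 12 pooled libraries, 1 per group. The authors produced 100-base paired reads on a DNBSEQ-G400, quantified them with Salmon 1.2.1 on GENCODE M20 protein-coding transcripts (GRCm38) and imported them with tximport in R 3.5.0. The deposited values are expected counts (estimated counts), unscaled between libraries. Where entries shared a symbol the authors retained the one with the largest total, so each gene is represented by 1 transcript identifier. The authors name a gene-level summary in tximport, with counts derived from length-scaled transcripts-per-million, and a conversion of transcript identifiers to gene names. Whether the deposited values, which bear transcript identifiers, had been summed over genes was not settled from the sources used here. A change in transcript usage can therefore appear as a change in level. Each of the 8 genes bore the same transcript in all 3 tissues.

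CPM, log2 changes and counting intervals (Wilson for levels, exact Clopper-Pearson for ratios, 95%, on rounded counts) were computed with scipy 1.17.1, pandas 2.3.3 and numpy 2.4.6 under Python 3.11.15, after 0.5 CPM had been put on both levels of a log2 change. Intervals of the difference between genotypes in the CORT change were instead a normal approximation on unrounded counts, without the added 0.5 CPM. The floor was 3 counts, 0.143 to 0.155 CPM. NOISeq for data without replicates (5 simulated samples at 0.2 of the depth, variability 0.02, no length correction, 0 set to 0.5) was written in Python and tested on simulated data. It is the method the authors used and its probability is not a p-value. Alternatives used TMM factors (edgeR 4.0.16), median-of-ratios factors (DESeq2 1.42.0, R 4.3.3), totals without the 10 most abundant genes, 0.1 or 2 CPM added, and a 1.5-fold threshold. The replicate spread could not be estimated.

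The 8 genes and the lists (other zinc transporters, copper handling, inducers of metallothioneins, and markers of hepatocytes, adipocytes, myofibres, macrophages, endothelium and exocrine pancreas) were chosen with earlier results of these data known. Genes named from the lists were past 2-fold with at least 5 CPM in 1 of the 2 libraries, at most 5 per list and contrast, and the 5 nearest profiles were named by rule, 1 of which is not reported here. Other genes, those under 5 CPM included, were named after their values had been seen. Of the marker lists, exocrine pancreas genes summed to 0 to 0.27 CPM in gastrocnemius, 0 to 7.93 CPM in liver and 10.5 to 34.5 CPM in fat, and endothelial genes to 215 to 323 CPM in gastrocnemius and 40.5 to 66.8 CPM in liver. Myofibre genes summed to 0.05 to 6.80 CPM in liver and 47.4 to 200.1 CPM in fat, and hepatocyte genes to 59.8 to 128 CPM in fat.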

Additional observations from a re-analysis of the deposited data

Results flagged for a closer look

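In liver, *Mtf1* moved in opposite directions with CORT in the 2 genotypes. It was higher by 0.51 on the log2 scale in GRf/f mice (15.5 and 22.2 CPM) and lower by 0.23 in GRmKO mice (18.4 and 15.6 CPM), so that the change in GRmKO minus that in GRf/f mice was -0.73 (-1.05 to -0.46). Each value rests on 1 pooled library, the interval covers counting error only, and the difference between genotypes was not tested.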

How the results depend on the processing

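Scaling and the added CPM moved few values. Of the alternative values of the log2 changes of the 8 genes, 6 moved by more than their counting error under TMM factors, 4 under median-of-ratios factors and 4 without the 10 most abundant genes, and none turned from a call in one direction to the other. *Mt2* in gastrocnemius, GRmKO against GRf/f with vehicle, stood on the threshold, so that 1 gene was past 2-fold there with totals without the 10 most abundant genes, 1 with 0.1 CPM added and 1 by NOISeq, and 2 with a 1.5-fold threshold. With CORT 1 gene, *Mt3*, was past 2-fold with those totals and 1 with 0.1 CPM added, and 4 genes at 1.5-fold, and in gonadal WAT with vehicle 1 with 0.1 CPM added. The share of all genes at 1.5-fold was not computed. The differences between genotypes in the CORT change of fat were -0.22 for *Mt1* and -0.14 for *Mt2* without the 10 most abundant genes. TMM and median-of-ratios factors shifted the median of all genes with CORT in GRmKO mice from -0.10 to 0.04 and 0.03 in gastrocnemius and from -0.12 to about 0 in fat. Over all genes with any count, the share past 2-fold moved in 3 of 12 contrasts.

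The counts of other zinc transporters depended on the threshold. At 1.5-fold they were 3 and 1 in gastrocnemius with CORT in GRf/f and GRmKO mice, 3 and 4 in liver, and 6 and 2 in fat. Between genotypes with vehicle and with CORT they were 2 and 3 in liver and 2 and 1 in fat. No share of all genes was computed at 1.5-fold, so these counts cannot be set against one. By NOISeq they were 0 and 1 between genotypes in gastrocnemius, 0 in all 4 contrasts of liver and 0 in fat of GRf/f mice with CORT. In liver, leaving out the 10 most abundant genes gave 2 with CORT in GRf/f mice, and TMM and median-of-ratios factors gave 0 and 0 between genotypes with CORT.

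No paired analysis was possible because each group had 1 library, and no setting left a library out. Depth limits *Mt3* and, outside liver, *Slc30a10*, which rest on few counts.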
